A study of Mus musculus with 2 samples.

Results

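IGKV10 light chains were taken from antibody transcripts that were read cell by cell in the Peyer's patches of mice, which are gut lymphoid tissue where B cells meet antigens of the intestine. A cell barcode was counted as a cell where it held exactly 1 productive heavy chain, its light chain was the productive light chain with the most UMIs (unique molecular identifiers, which count captured transcripts), and it was an IGKV10 cell where that chain was kappa with a V gene of the IGKV10 family. This gave 359 of 6241 cells, of which 208 came from the Cre+ library and 151 from the Cre- library. By gene, the Cre+ library held 174 IGKV10-96, 32 IGKV10-94 and 2 IGKV10-95 cells, and the Cre- library held 125, 24 and 2. The study set mice without MHC class II on the gut epithelium against controls that keep it. Both genotypes carried loxP-flanked H2-Ab1 (H2-Ab1 fl/fl), the gene of the MHC class II beta chain. The Cre+ library came from mice that also carried Villin:Cre, a recombinase driven by a promoter of intestinal epithelial cells and not of B cells, and the Cre- library from mice without it. White blood cells (CD45+) of 4 adult female mice were pooled for each genotype and run as 1 library, so genotype and library cannot be told apart, no difference has a replicate check and no p-value is given. The design text of GEO gives both groups as lacking Cre, where the sample labels differ; the labels were followed, and the tables hold no measurement of H2-Ab1, of CD45 or of any other cell type marker.

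A kappa chain is made when 1 V gene is joined to 1 of the functional kappa J genes, and the joint forms the end of the CDR3, the loop at the centre of the antigen-binding site. Kappa joints carry few added nucleotides, so that many B cells make the same chain independently. A kappa allele can rearrange again by joining a V gene further upstream to a J gene further downstream, which removes the earlier joint; chains joined to IGKJ1 or IGKJ2 have used the upstream J genes. The IGKV10 family is known from the anti-arsonate antibodies of strain A mice, in which IGKV10-96 (also called V kappa 10A) is joined to IGKJ1 with an arginine at the joint. In the Peyer's patch, B cells switch from IgM and IgD to IgA, the antibody secreted into the gut, and to IgG classes, and in germinal centres their V genes take up mutations.

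In the RefSeq gene table of GRCm38.p6 the 3 genes lie side by side on chromosome 6: Igkv10-96 at chr6:68631965-68632430, Igkv10-95 at chr6:68680379-68680848 and Igkv10-94 at chr6:68704508-68704978. Gaps of 47.95 kb and 23.66 kb separate them, and they lie 2.09, 2.04 and 2.02 Mb from Igkj1, which starts the J cluster at chr6:70722562-70722599. No genome sequence or promoter of these genes was used here, so the sequences shown are CDR3s from the deposited contig tables, written from the codon of the conserved cysteine to that of the phenylalanine. The 6 most frequent CDR3s of IGKV10-96 are printed because they differ from each other only where V meets J: the capitals mark the ninth codon, which the joint makes and which encodes, in the order printed, tryptophan, tyrosine, arginine, proline, phenylalanine and leucine.
IGKV10-96 with IGKJ1: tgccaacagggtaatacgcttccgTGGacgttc
IGKV10-96 with IGKJ2: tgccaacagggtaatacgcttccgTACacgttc
IGKV10-96 with IGKJ1: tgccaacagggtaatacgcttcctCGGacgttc
IGKV10-96 with IGKJ1: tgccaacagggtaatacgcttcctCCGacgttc
IGKV10-96 with IGKJ4: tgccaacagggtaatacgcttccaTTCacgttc
IGKV10-96 with IGKJ5: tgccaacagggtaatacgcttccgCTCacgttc
The main IGKV10-94 CDR3s carry the same joint codons after another start:
IGKV10-94 with IGKJ1: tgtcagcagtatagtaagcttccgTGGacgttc
IGKV10-94 with IGKJ2: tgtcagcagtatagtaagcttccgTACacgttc

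IGKV10 chains were a common part of the kappa repertoire in both genotypes, and IGKV10-96 supplied most of them. The family made up 6.68% of kappa cells in the Cre+ library (208 of 3113, exact 95% interval 5.83 to 7.62) and 5.46% in the Cre- library (151 of 2766, 4.64 to 6.37). The difference of 1.22 points had an interval of -0.0264 to 2.46. All intervals here are Clopper-Pearson intervals, or for a difference are combined from them, and cover counting error only. The Cre- library holds an IGHV4-1 lineage of 417 cells and the Cre+ library an IGHV5-17 lineage of 64, where a lineage holds cells of 1 library that agree in IGHV, IGHJ and heavy chain CDR3 length and whose CDR3 nucleotides are linked at 85% identity or above. The Cre- lineage held 0 IGKV10 cells and the Cre+ lineage held 3, so the Cre- lineage adds to the denominator alone. With these lineages left out the family's share was 6.72% of kappa cells in the Cre+ library and 6.37% in the Cre- library, a difference of 0.353 points (-1.01 to 1.69).

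IGKV10-96 made up 5.59% of kappa cells in the Cre+ library and 4.52% in the Cre- library, and it ranked 2 among the 88 IGKV genes by cells over both libraries. Without the largest lineages it ranked 1, with 5.60% and 5.27%. IGKV10-94, which lies nearer to the J cluster, made up 1.03% and 0.868%, with intervals that lay below those of IGKV10-96 in both libraries. IGKV10-95, between them, was the main chain of 2 cells in each library, 0.0643% and 0.0723%. None of the IGKV10 genes passed the rule used to set the libraries against each other (at least 20 cells, shares that differ 1.5 times or more in either direction, and intervals that stay apart), under which 2 of 62 IGKV genes (3.23%) were called with all cells and 0 of 61 without the largest lineages.

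**Figure D1:**
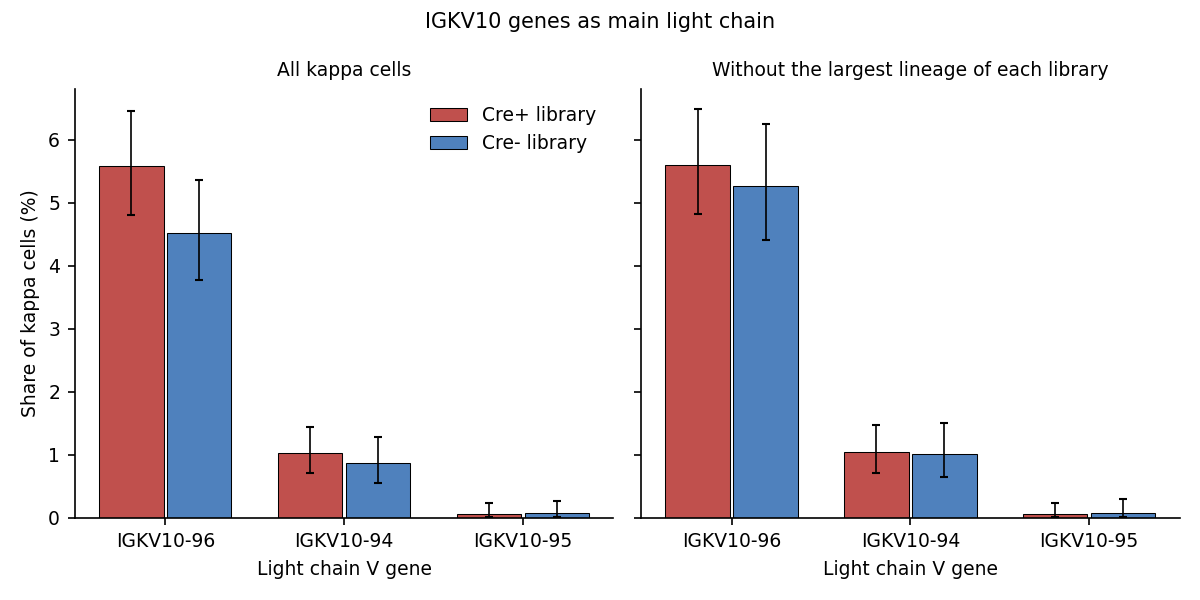
Share of kappa cells (%, vertical axis) whose main light chain used each IGKV10 gene, in the Cre+ library (red) and the Cre- library (blue), over all kappa cells (left) and after the largest lineage of either library was left out (right). Bars are shares of cells in 1 pooled library each, and whiskers are exact 95% intervals; IGKV10-96 is at 5.59% and 4.52% on the left and at 5.60% and 5.27% on the right, and the intervals of the libraries overlap for each gene.

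IGKV10 chains were joined to the upstream J genes far more often than the other kappa chains were, in both libraries. In the Cre+ library 129 of 208 IGKV10 cells used IGKJ1 (62.0%, 55.0 to 68.6), 59 used IGKJ2, 9 used IGKJ4 and 11 used IGKJ5. In the Cre- library 74 of 151 used IGKJ1 (49.0%, 40.8 to 57.3), 55 used IGKJ2, 12 used IGKJ4 and 10 used IGKJ5. IGKJ1 or IGKJ2 together were used by 90.4% of IGKV10 cells in the Cre+ library and by 85.4% in the Cre- library.

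The largest lineages were set aside on both sides to compare with other kappa cells, because the Cre- lineage alone carries IGKJ1 usage of other kappa cells to 37.3%. The IGKJ1 share was then 62.4% of IGKV10 cells against 28.2% of other kappa cells in the Cre+ library, a difference of 34.2 points (27 to 41.1). The Cre- values were 49.0% against 26.4%, a difference of 22.6 points (14.2 to 31.1). IGKJ5, the most downstream J gene, was used by 4.88% of IGKV10 cells against 26.0% of other kappa cells in the Cre+ library, a difference of -21.1 points (-24.1 to -16.9). The IGKJ5 share in the Cre- library was 6.62% against 26.8%, a difference of -20.2 points (-24.1 to -14.7). IGKJ2 usage differed by -2.66 points (-8.96 to 4.24) in the Cre+ library and 2.97 points (-4.96 to 11.4) in the Cre- library, so the gain in IGKJ1 stood opposite a deficit in IGKJ4 and IGKJ5. For IGKJ4 the intervals were apart in the Cre+ library (4.39% against 14.9%) and overlapped in the Cre- library (7.95% against 13.3%).

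Within the family, IGKJ1 was used by 62.1% of IGKV10-96 and 62.5% of IGKV10-94 cells in the Cre+ library, and by 52.8% and 33.3% in the Cre- library. The Cre- value of IGKV10-94 rests on 8 of 24 cells and its interval (15.6 to 55.3) holds the value of the other kappa cells. The IGKJ1 share of the whole family was 13.0 points higher in the Cre+ library than in the Cre- library (2.21 to 23.6), while the intervals of the shares themselves overlapped. In other kappa cells without the largest lineages the same difference was 1.83 points (-0.674 to 4.32); the difference between these 2 differences was not tested. In IGKV10-96 alone the difference was 9.27 points (-2.54 to 20.9), so its interval holds 0.

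Among 43 IGKV genes with 50 or more cells, ranked by the mean of both libraries' shares of IGKJ1 or IGKJ2, IGKV10-96 came 1 with 89.4% and IGKV10-94 came 4 with 84.9%. IGKV9-123, whose cells come mostly from the large Cre- lineage, and IGKV19-93, with 86.8%, stood between them. The likeness of J usage was measured as the sum over the 4 J genes of the absolute differences in mean share. By this measure IGKV3-2 was nearest to IGKV10-96 (9.46 points), followed by IGKV1-135 (15.3 points) and IGKV10-94 (19.0 points). Nearest to IGKV10-94 were IGKV19-93 (8.66 points), IGKV3-2 (11.7 points) and IGKV3-10 (12.8 points). These are descriptions over 2 libraries.

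**Figure D2:**
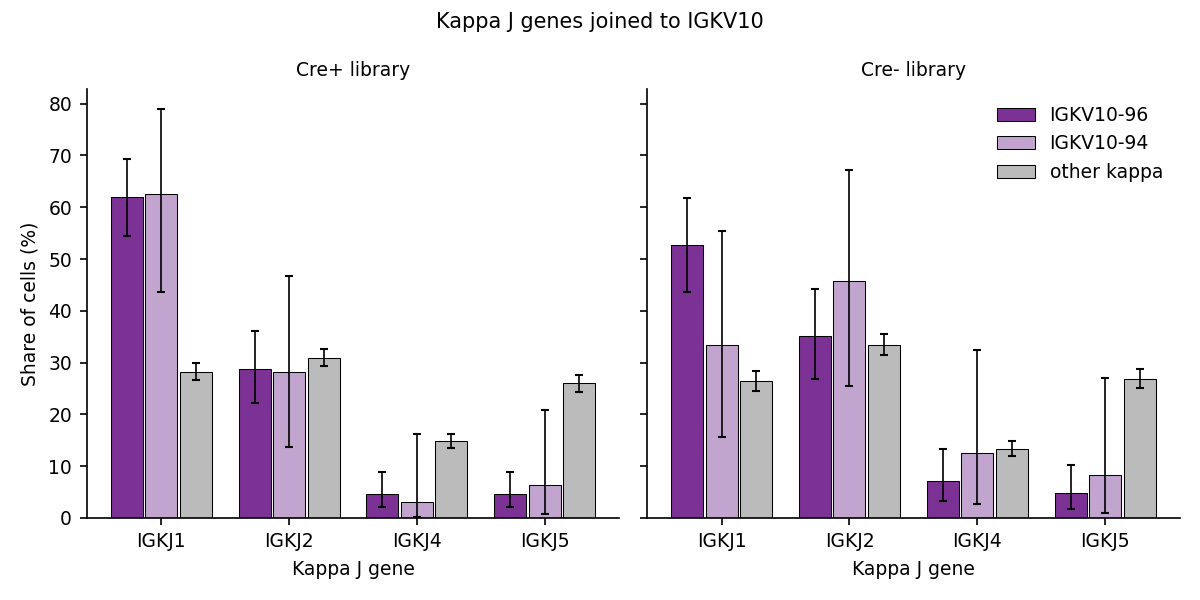
Share of cells (%, vertical axis) that used each kappa J gene, for IGKV10-96 (dark purple), IGKV10-94 (light purple) and other kappa cells outside the largest lineages (grey), in the Cre+ library (left) and the Cre- library (right). Whiskers are exact 95% intervals; IGKJ1 stands at 62.1% for IGKV10-96 against 28.2% for other kappa cells in the Cre+ library, and IGKJ5 at 4.60% against 26.0%.

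A few light chain CDR3s covered most cells of the family. By V gene and nucleotides, 208 Cre+ IGKV10 cells held 45 CDR3s, and 151 Cre- IGKV10 cells held 38. Repeats were common in other kappa cells too, with 794 CDR3s in 2905 Cre+ cells and 688 in 2615 Cre- cells. Whether the family is less varied was not tested. Counted without the cysteine and the phenylalanine, 9 residues made up the CDR3 of 191 of 208 Cre+ and 139 of 151 Cre- cells, close to the shares of other kappa cells (90.7% in both libraries without the largest lineages). All 56 IGKV10-94 cells had that length. In IGKV10-96, CDR3s of 7 to 10 residues occurred in the Cre+ library and of 8 to 11 in the Cre- library. The 299 IGKV10-96 cells held 42 CDR3s by amino acid. The 6 amino acid sequences encoded by the nucleotides shown above covered 245 cells, with all their nucleotide versions counted. The 56 IGKV10-94 cells held 7, with 6 covering 55 cells.

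The most frequent IGKV10-96 CDR3, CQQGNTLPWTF, was carried by 60 Cre+ cells (34.5%) and 34 Cre- cells (27.2%). These 94 cells had 94 different heavy chain CDR3s and 45 IGHV genes, and 93 of them had the same light chain CDR3 nucleotides. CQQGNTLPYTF followed with 38 Cre+ and 36 Cre- cells, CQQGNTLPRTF with 19 and 12, and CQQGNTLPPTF with 10 and 10. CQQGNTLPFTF had 7 and 8 cells and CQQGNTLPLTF had 7 and 4. In IGKV10-94, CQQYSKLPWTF was carried by 12 Cre+ and 7 Cre- cells and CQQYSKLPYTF by 9 and 10. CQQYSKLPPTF was in 5 and 2 cells, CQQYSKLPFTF in 1 and 3, and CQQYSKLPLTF in 0 and 2. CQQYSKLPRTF was in 4 Cre+ cells of 3 lineages and in 0 Cre- cells. The same IGKV10 chains therefore recurred in cells of separate lineages rather than in large clones. The 4 IGKV10-95 cells had 4 CDR3s. Of these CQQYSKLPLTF and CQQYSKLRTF had the usual IGKV10-94 start, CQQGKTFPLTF resembled IGKV10-96 and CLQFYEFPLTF resembled neither. Where IGKV10-95 was the second light chain of a cell, its CDR3 also began with CQQYSK, as in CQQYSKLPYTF at 30 UMIs. This start therefore does not tell IGKV10-95 from IGKV10-94. The V genes named for the 4 cells were not checked against germline and stay uncertain.

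The joint residue followed the J gene. Over both libraries and all CDR3s of the usual length, IGKJ1 joints encoded tryptophan in 118 of 186 IGKV10 cells, arginine in 41 and proline in 25. IGKJ2 joints encoded tyrosine in 101 of 104, IGKJ4 joints phenylalanine in 20 of 21 and IGKJ5 joints leucine in 17 of 19. Arginine, the residue of the anti-arsonate chains named above, was therefore seen with IGKJ1 alone. It was encoded in 14.7% of such IGKV10 cells in the Cre+ library (28 of 191) and in 9.35% in the Cre- library (13 of 139).

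Without the largest lineages, tryptophan was at the joint of 39.4% of IGKV10 cells against 16.2% of other kappa cells in the Cre+ library, a difference of 23.2 points (16.0 to 30.7). The Cre- values were 30.9% against 16.3%, a difference of 14.7 points (6.91 to 23.2). Leucine was lower in IGKV10 cells in both libraries, at 3.72% against 27.5% in the Cre+ library and 6.47% against 27.9% in the Cre- library. Arginine had intervals apart in the Cre+ library (14.9% against 6.59%) and overlapping in the Cre- library (9.35% against 5.76%). Phenylalanine was lower in Cre+ IGKV10 cells with intervals apart (4.79% against 13.4%), and its intervals overlapped in the Cre- library (7.91% against 12.5%). Tyrosine and proline overlapped in both. None of the 6 residues had intervals apart between the Cre+ and Cre- IGKV10 cells.

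**Figure D3:**
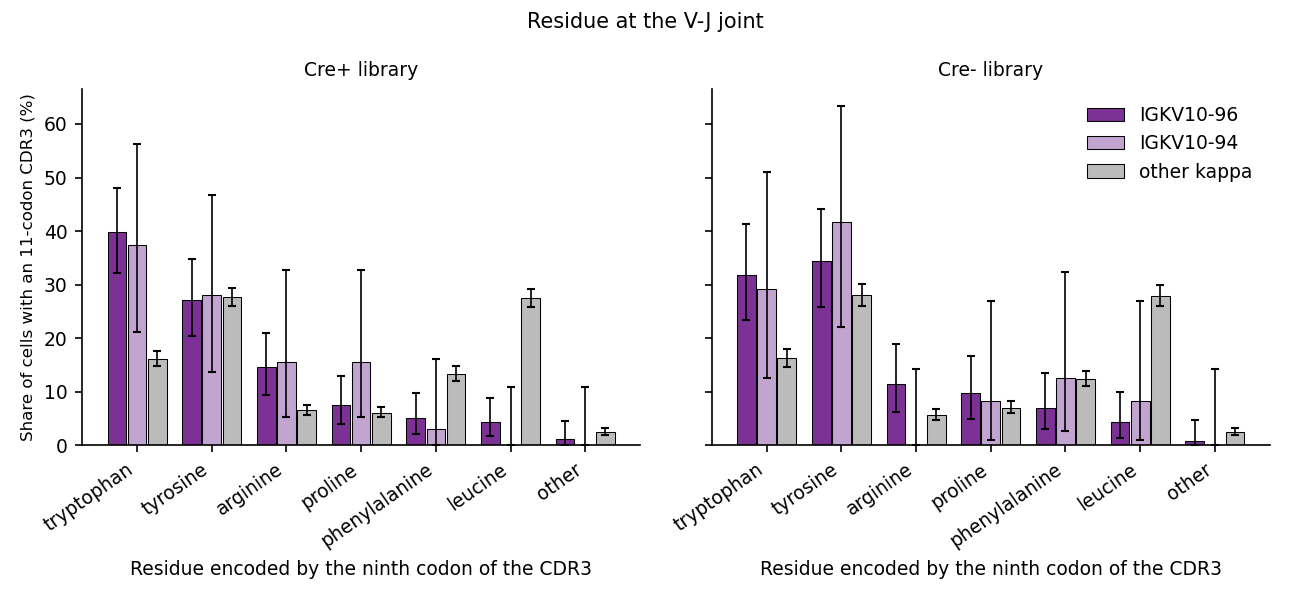
Share of cells (%, vertical axis) by the residue encoded at the ninth codon of the CDR3, among cells with a CDR3 of 33 bases, for IGKV10-96 (dark purple), IGKV10-94 (light purple) and other kappa cells without the largest lineages (grey) in the Cre+ library (left) and the Cre- library (right). Whiskers are exact 95% intervals; tryptophan stands at 39.9% in IGKV10-96 against 16.2% in other kappa cells of the Cre+ library, and leucine at 4.43% against 27.5%.

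Most IGKV10 cells carried a light chain that was also found in the other genotype's library. Of the distinct CDR3 nucleotide sequences, counted per V gene, 16 occurred in both libraries. They were 35.6% of the 45 sequences of the Cre+ library and 42.1% of the 38 of the Cre- library. In cells, 82.7% of the Cre+ and 83.4% of the Cre- IGKV10 cells had such a sequence. Other kappa cells shared 371 sequences, 46.7% of the Cre+ and 53.9% of the Cre- sequences, which covered 80.4% and 85.8% of their cells. The largest lineages were kept in these counts, so the values of other kappa cells include them. For IGKV10-96 the shared sequences numbered 11 and for IGKV10-94 5.

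The heavy chains paired with IGKV10 were varied. The 359 cells used 73 of the 95 IGHV genes and 11 of the 15 IGHV families seen in kappa cells, and held 356 heavy chain CDR3s in 352 lineages. The families with 0 IGKV10 cells were IGHV11, IGHV12, IGHV13 and IGHV15; IGHV13, the most frequent of them, had 18 Cre+ and 9 Cre- cells among other kappa cells outside the largest lineages. Without the largest lineages IGHV1, the largest family of the mouse locus, was used by 63.9% of IGKV10 cells against 64.2% of other kappa cells in the Cre+ library, and by 62.3% against 63.4% in the Cre- library. IGHV2 was used by 9.6% of Cre- IGKV10-96 cells (12 of 125, 5.06 to 16.2) against 4.10% of other kappa cells (3.31 to 5.01), with intervals apart; in the Cre+ library the shares were 3.45% and 3.83%, and for the whole family the Cre- intervals overlapped. Heavy chain CDR3s had a median of 14 residues in Cre+ IGKV10 cells and 15 in Cre- IGKV10 cells, and 14 in other kappa cells of both libraries. IGHJ usage overlapped that of other kappa cells except for IGHJ3 in the Cre- library, at 11.9% (7.22 to 18.2) against 21.6% (19.9 to 23.4); in the Cre+ library IGHJ3 was at 19.5% against 22.5%.

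IGHV1-26 was the most frequent partner with 28 cells, 15 Cre+ and 13 Cre-, followed by IGHV1-55 with 18, IGHV3-6 with 16, IGHV1-80 with 14 and IGHV1-82 with 13. Next came IGHV1-64, IGHV1-9 and IGHV5-17 with 11 each. Without the largest lineages IGHV5-17 had 8. Of the 11 IGHV genes with 10 or more IGKV10 cells, 2 (18.2%) had shares that differed from those in other kappa cells by 1.5 times or more with intervals apart, both with all cells and without the largest lineages. They were IGHV1-55 and IGHV4-1, and IGHV1-26 was among the rest, at 7.80% against 5.91%. The 11 genes were chosen by their count of IGKV10 cells alone, which favours genes with a high share in IGKV10 cells. Genes rare there, such as IGHV1-15 with 2 IGKV10 and 100 other kappa cells, could not be called.

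IGHV1-55 was the heavy V gene of 5.01% of IGKV10 cells (3 to 7.81) against 2.32% of other kappa cells (1.94 to 2.75), a ratio of 2.16. Without the largest lineages the ratio was 2. The excess lay in the Cre+ library, where 13 IGKV10 cells or 6.34% (3.42 to 10.6) used IGHV1-55 against 2.28% (1.77 to 2.90) of other kappa cells. In the Cre- library 5 IGKV10 cells or 3.31% (1.08 to 7.56) used it against 2.84% (2.19 to 3.62), with intervals that overlap. The difference between the libraries was not tested. The 18 cells had 18 different heavy chain CDR3s, 16 of them were unswitched and 16 carried IGKV10-96. With unswitched cells alone the ratio was 1.99 and the intervals overlapped.

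For IGHV4-1 the direction turned on the large Cre- lineage, which uses that gene. With all cells it was paired with 2.79% of IGKV10 cells against 7.68% of other kappa cells, a ratio of 0.363. Without the largest lineages it was paired with 2.81% (1.36 to 5.11) against 0.592% (0.400 to 0.844), a ratio of 4.74. The 10 IGKV10 cells were 4 of the Cre+ and 6 of the Cre- library. They had 10 different heavy chain CDR3s of 12 to 19 residues and 10 lineages, were all IgM or IgD, and 9 carried IGKV10-96. In the Cre- library the intervals were apart (3.97% against 0.450%), and in the Cre+ library they overlapped (1.95% against 0.703%). Seen from the heavy chain, IGKV10 supplied the light chain of 10 of the 40 IGHV4-1 kappa cells outside the largest lineages, or 25% (12.7 to 41.2), against 6.56% of all such kappa cells. Both genes were singled out for their size among 11 that were chosen by their count of IGKV10 cells, which is a description of these cells.

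**Figure D4:**
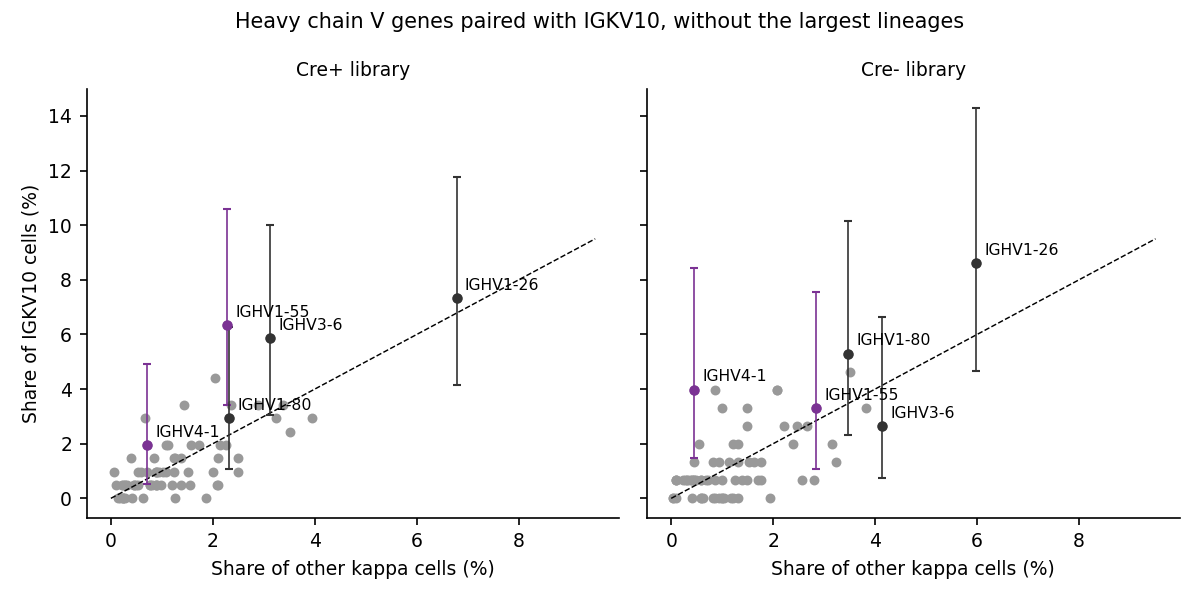
Share of IGKV10 cells (%, vertical axis) against share of other kappa cells (%, horizontal axis) for each heavy chain V gene paired with IGKV10, without the largest lineages, in the Cre+ library (left) and the Cre- library (right). The dashed line marks equal shares, whiskers on the labelled genes are exact 95% intervals of the IGKV10 share, and purple marks IGHV1-55 and IGHV4-1; IGHV1-55 stands at 6.34% against 2.28% on the left and IGHV4-1 at 3.97% against 0.450% on the right.

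The isotypes of IGKV10 cells were those of unswitched B cells for the most part, and their shares were alike in size between the libraries. Among cells with a constant gene called, 20 of 207 Cre+ IGKV10 cells were switched (9.66%, 6 to 14.5) and 15 of 151 Cre- IGKV10 cells (9.93%, 5.67 to 15.9), a difference of -0.272 points (-7.23 to 6.20). IgM was called in 59.9% and 60.3%, and IgD in 30.4% and 29.8%. IgG2b was found in 12 Cre+ and 8 Cre- cells, IgA in 8 and 6, and IgG1 in 0 and 1; the 0 of 207 allows a share of up to 1.45%, taken as 3 cells of the total (exact upper bound 1.77%). Among the switched cells IgG2b therefore had more cells than IgA in both libraries, with intervals of the shares that overlapped in each.

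Among other kappa cells 11.4% (Cre+) and 23.6% (Cre-) were switched, and 9.82% and 10.1% without the largest lineages. On that footing IGKV10 cells differed from other kappa cells by -0.552 points (-4.33 to 4.39) in the Cre+ library and -0.148 points (-4.62 to 5.90) in the Cre- library. IgG2b made up 5.85% of IGKV10 cells against 2.90% of other kappa cells in the Cre+ library and 5.30% against 3.62% in the Cre- library. The intervals of the shares overlapped in both, while that of the difference was 0.0814 to 7.15 points in the Cre+ library and -1.43 to 6.61 points in the Cre- library. IgA made up 3.4% of IGKV10 against 5.0% of other kappa cells (Cre+) and 4.0% against 5.6% (Cre-), with intervals that overlapped in both. Of the IGKV10-94 cells, 3 of 32 in the Cre+ library were switched, each IgG2b, and 0 of 24 in the Cre- library, which allows a share of up to 12.5% by the same rule (exact upper bound 14.2%).

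Switched IGKV10-96 cells often carried a changed CDR3 start. The start was taken as the first 18 bases. They come from the V gene in CDR3s of the usual length, but reach the joint in the shortest CDR3s. A start was called changed where any base differed from the gene's most frequent start in unswitched cells. This definition itself keeps the unswitched share low. The usual start of IGKV10-96 encodes CQQGNT. It was changed in 9 of 17 switched cells of the Cre+ library (52.9%, 27.8 to 77.0) against 7 of 156 unswitched cells (4.49%, 1.82 to 9.03). In the Cre- library it was changed in 6 of 14 switched cells (42.9%, 17.7 to 71.1) against 3 of 111 unswitched cells (2.70%, 0.561 to 7.70). The intervals of switched and unswitched cells were apart in both libraries. Other kappa cells without the largest lineages had changed starts in 52.3% of switched against 1.12% of unswitched cells in the Cre+ library, and in 44.7% against 0.945% in the Cre- library. The IGKV10-96 counts keep the largest Cre+ lineage, which holds 1 of the 9 changed switched cells. With all cells, changed starts were found in 43.6% (Cre+) and 44.4% (Cre-) of switched other kappa cells. The intervals of the switched shares of IGKV10-96 and other kappa cells overlapped on either footing. The unswitched shares lay apart in the Cre+ library (1.82 to 9.03 against 0.736 to 1.62) and overlapped in the Cre- library. Of the 7 unswitched Cre+ cells, 3 belong to the IGHV1-58 lineage described below and 1 rests on 1 light chain UMI.

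By isotype, changed IGKV10-96 starts were found in 7 of 8 IgA and 2 of 9 IgG2b cells of the Cre+ library, and in 3 of 6 IgA and 3 of 8 IgG2b cells of the Cre- library. Their IgA and IgG2b intervals overlapped in each library, and 1 of the 7 Cre+ IgA cells, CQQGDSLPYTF, rests on 2 light chain UMIs. Of the 3 changed Cre- IgA cells, 2 form the IGHV2-2 lineage described below. They are counted separately in all these shares. Over the 15 switched cells with a changed start, the fifth codon differed in 12 and the sixth in 8, where the usual start encodes asparagine and threonine. Over the 11 unswitched IGKV10 cells with a changed start, of which 1 was IGKV10-94, the fifth codon differed in 8 and the sixth in 6. The following switched cells are shown for the range of these changes, with capitals at the bases that differ from the usual start.
Cre+ IgA, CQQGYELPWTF: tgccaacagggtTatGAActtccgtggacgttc
Cre+ IgA, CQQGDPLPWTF: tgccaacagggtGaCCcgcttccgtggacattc
Cre+ IgA, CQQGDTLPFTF: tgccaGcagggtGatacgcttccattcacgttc
Cre+ IgG2b, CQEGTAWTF: tgccaaGagggtaCtGcgtggacgttc
Cre- IgA, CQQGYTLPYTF: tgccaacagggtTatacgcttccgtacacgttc
Cre- IgG2b, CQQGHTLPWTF: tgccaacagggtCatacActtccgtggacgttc
Cre- IgG2b, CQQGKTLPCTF: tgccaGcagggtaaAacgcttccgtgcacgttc
In these cells the fifth residue was tyrosine, aspartate, threonine, histidine or lysine in place of asparagine. In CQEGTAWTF, of 27 bases, the sixth codon lies next to the joint. The germline sequence was not used here, and the source of a changed base was not tested.

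**Figure D5:**
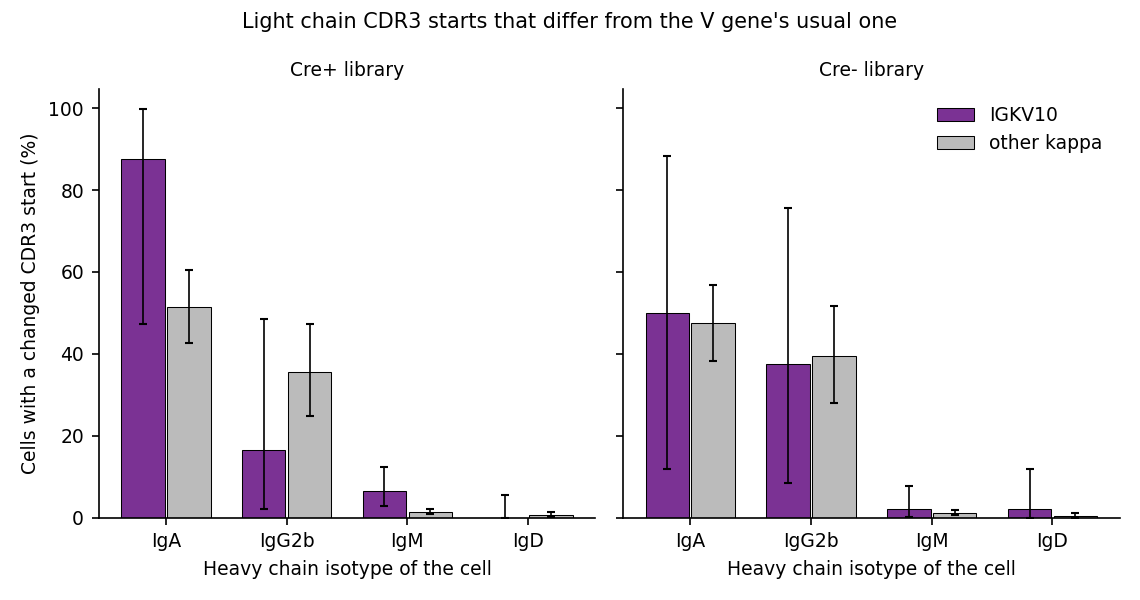
Share of cells with a changed CDR3 start (%, vertical axis) by heavy chain isotype, for IGKV10 cells (purple) and other kappa cells without the largest lineages (grey) in the Cre+ library (left) and the Cre- library (right). The IGKV10 bars keep the largest lineages. Whiskers are exact 95% intervals; IgA IGKV10 cells stand at 87.5% (7 of 8) in the Cre+ library and 50% (3 of 6) in the Cre- library, and IgM cells at 6.56% and 2.20%.

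A heavy chain lineage of 2 or more cells held 21 of 208 Cre+ IGKV10 cells (10.1%, 6.36 to 15.0) and 7 of 151 Cre- IGKV10 cells (4.64%, 1.88 to 9.32). Leaving out the largest lineages, the shares were 8.78% of IGKV10 cells (5.29 to 13.5) against 8.33% of other kappa cells (Cre+), and 4.64% against 6.35% (Cre-), with intervals that overlap in both. Lineages in which 2 or more cells carried IGKV10 numbered 3 in the Cre+ library, with 9 cells, and 1 in the Cre- library, with 2 cells. Lineages were joined by the heavy chain alone, and each of those with 1 IGKV10 cell also held another light V gene. An example is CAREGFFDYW and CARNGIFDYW, with IGKV10-96 and IGKV4-57. The shares above therefore do not show that these cells are clonal relatives. In the Cre+ IGHV5-17 lineage the 3 IGKV10 cells had 3 different light chains, so a common light chain does not join them.

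The IGHV1-69 lineage of the Cre+ library used IGHJ3 and IGKV10-94 with IGKJ1. It held 2 IgG2b cells with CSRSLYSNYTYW and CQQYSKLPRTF and 1 IgM cell with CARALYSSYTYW and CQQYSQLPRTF. Both IgG2b cells also had a second productive light chain, IGKV3-12 with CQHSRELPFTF at 5 and 6 UMIs, and the IgM cell had 1 light chain. The heavy chains of the IgG2b cells had 4 and 2 UMIs. The Cre- lineage used IGHV2-2 with IGHJ1 and held 2 IgA cells, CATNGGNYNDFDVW with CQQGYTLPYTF and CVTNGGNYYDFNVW with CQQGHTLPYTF. These light chains differed from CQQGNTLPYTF at the fifth residue in both cells.

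The IGHV1-58 lineage of the Cre+ library stood out because a cell of the Cre- library resembled it in both chains. It used IGHJ2 and IGKV10-96 with IGKJ1, and its 3 cells were IgM with heavy chain CDR3s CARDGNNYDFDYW, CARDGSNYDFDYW and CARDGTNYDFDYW. In the Cre- library 1 IgM cell had IGHV1-58, IGHJ2 and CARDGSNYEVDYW. The capitals mark the light chain bases that differ from the usual start.
Cre+ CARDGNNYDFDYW, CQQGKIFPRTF: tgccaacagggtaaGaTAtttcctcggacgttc
Cre+ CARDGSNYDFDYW, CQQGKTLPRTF: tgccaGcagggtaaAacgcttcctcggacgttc
Cre+ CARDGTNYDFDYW, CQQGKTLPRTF: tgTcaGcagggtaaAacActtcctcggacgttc
Cre- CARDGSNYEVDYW, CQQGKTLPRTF: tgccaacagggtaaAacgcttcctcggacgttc
All 4 light chains had lysine at the fifth residue and arginine at the joint. The Cre- cell differed from the Cre+ cell with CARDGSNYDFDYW at 3 of 39 heavy chain CDR3 bases (92.3% identity) and at 1 of 33 light chain CDR3 bases. These cells had 62 and 90 heavy and light chain UMIs in the Cre+ library and 31 and 41 in the Cre- library, and the Cre+ cell with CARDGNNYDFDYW had 2 and 3.

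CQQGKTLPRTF was found in these 3 IGHV1-58 cells and in no other IGKV10-96 cell. No other IGKV10 cell had a partner in the other library with the same heavy V, heavy J and light V gene, the same heavy chain CDR3 length and 85% or more identity of its nucleotides. Such a partner was found for 9 of 2905 other kappa cells of the Cre+ library and 7 of 2615 of the Cre- library. This set was chosen after its values were seen. The Cre+ library held 25 IGHV1-58 cells and the Cre- library 11, of which 6 and 1 carried IGKV10. The 3 remaining Cre+ cells used IGHJ1 or IGHJ4 with the usual IGKV10-96 or IGKV10-94 start.

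The median IGKV10 cell had 28 light and 8 heavy chain UMIs in the Cre+ library and 31 and 8 in the Cre- library. Light chain UMIs ran from 1 to 6346 in the Cre+ library and from 4 to 8612 in the Cre- library, and the highest values were those of switched cells. Fewer than 3 light chain UMIs were found in 2 Cre+ and 0 Cre- members. Both of those members carried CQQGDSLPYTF, which occurred with identical nucleotides in 7 productive Cre+ barcodes at 1 to 2 UMIs each, next to 6 different heavy chain CDR3s and 6 IGHV genes. In 4 of those barcodes a lambda chain was present too, and the sequence was in 0 Cre- barcodes; whether it is free RNA was not tested. The changed-start shares of switched and of unswitched Cre+ IGKV10-96 cells each count 1 of these members.

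A second productive light chain was found in 16 of 208 Cre+ IGKV10 cells (7.69%) and 6 of 151 Cre- IGKV10 cells (3.97%). Without the largest lineages the shares were 7.32% against 8.75% of other kappa cells in the Cre+ library and 3.97% against 8.10% in the Cre- library, with intervals that overlap in both. IGKV10 was itself the second chain of 17 Cre+ and 10 Cre- cells, which are not among the 359. Of these second chains, 5 Cre+ and 2 Cre- had 2 or fewer UMIs. The low Cre+ chains include the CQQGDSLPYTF sequence named above. Productive IGKV10 contigs also lay in 12 Cre+ and 20 Cre- barcodes with 2 or more heavy chains and in 20 and 15 with none, so that the 359 members account for 208 of 257 and 151 of 196 productive contigs.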

How the data were processed

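Single-cell V(D)J libraries were processed with Cell Ranger against GRCm38, per the submitters' processing notes; versions were not given in the sources used here. The deposited contig tables list each assembled chain with its genes, CDR3, and count of UMIs and reads, per the file headers; these counts were not normalised. The libraries held 3748 barcodes and 355258 UMIs (Cre+) and 3245 barcodes and 355985 UMIs (Cre-), with 3113 and 2766 kappa cells. They shared 10 barcodes, of which 0 were IGKV10 cells. No doublet caller was run; barcodes with 2 or more heavy chains were left out. Python 3.11.15 with pandas 2.3.3 and SciPy 1.17.1 gave shares with exact 95% intervals. Lineage joining and intervals were tested on simulated data. The simulated heavy chain CDR3s were random bases without shared gene segments, so wrong joining of unrelated real cells was not tested. The members, comparisons and lists were chosen with earlier results of these data known. Named were all IGKV10 and J genes, the 6 most frequent CDR3s per gene, and the 8 most frequent heavy V partners with those past the ratio rule. Coordinates come from RefSeq (GRCm38.p6), where 3 of 3 IGKV10 genes matched. The 7 alternatives concerned barcodes, UMIs, lineages and isotype class.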

Additional observations from a re-analysis of the deposited data

How the results depend on the processing

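Of 133 values recomputed under 7 alternatives, 119 moved by less than their counting interval. Most others came from switched cells alone, which were 20 (Cre+) and 15 (Cre-): the IGKV10 share of kappa cells was 5.71% and 2.38%, IGKV10-96 was 93.3% of Cre- IGKV10 cells, and IGKJ1 70%, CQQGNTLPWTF 17.6% and CDR3s of 9 residues 85% of the Cre+ cells concerned. IGHV1 was 75% and 53.3%, CDR3s found in both libraries 12.5% and 15.4%, and second light chains 20% and 0%. The Cre- share of IGKV10 was 6.39% with each lineage and isotype class once and 6.4% in unswitched cells. Among values added after seeing the data, the IGHV4-1 ratio reversed to 4.6 (each lineage once), 4.74 (without the largest lineages) and 4.86 (unswitched cells), which all lack most of the Cre- lineage. The IGHV1-55 ratio had overlapping intervals at 1.99 (unswitched) and 3.6 (switched), and the IGKJ1 difference between libraries was 23.3 points in switched cells (-12.8 to 54.5). The cause was not tested beyond the fewer cells. No paired analysis was possible because each genotype had 1 pooled library.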
